A study of Mus musculus with 12 samples.

Results

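The genes described here encode the proteins of the cytosolic ribosome. They were taken by name from the deposited table of normalised counts: every row named Rpl or Rps followed by a digit, together with Rplp0, Rplp1, Rplp2 and Rpsa, leaving out names that contain -ps, the Rps6k kinases, Rps19bp1 and Rps27l. This gave 90 of the 29486 rows, 53 for the large subunit and 37 for the small subunit. Of the 90, 77 were core ribosomal protein genes (46 large, 31 small) and 13 were copies or paralogues of one of them, such as Rpl22l1 and Rps27rt. A row was kept for comparison when at least 1 condition held 10 counts or more, which kept 15574 rows and 86 of these genes. The copies Rpl10l, Rpl3l, Rpl39l and Rps12l2 fell under that limit.

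Ribosomal proteins assemble with ribosomal RNA into the large and the small subunit, and a growing cell spends a large part of its transcription and translation on them. Their mRNAs are the classical TOP mRNAs, which begin with a run of pyrimidines and whose translation is controlled through the kinase complex mTORC1 and the RNA-binding protein Larp1, so that protein output can change while mRNA level does not. Resting B cells hold few ribosomes and build many more once they are activated.

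B cells were purified from the spleens of mice of the C57BL/6Babr strain with a bead kit and activated with lipopolysaccharide (LPS) at 10 µg/ml, and polyadenylated RNA was sequenced from 3 conditions with 4 libraries each. The LPS condition was 48 h of LPS. The LE condition had LPS for 48 h and then etoposide, a topoisomerase II poison that causes DNA double-strand breaks, at 20 µM for 4 h. The LEKU condition had LPS for 47 h, then KU55933, an inhibitor of the DNA-damage kinase ATM, at 10 µM for 1 h before etoposide at 20 µM for 4 h. All cells of the 3 conditions had therefore been activated with LPS, no condition had KU55933 without etoposide, and the labels do not say whether the LPS cells were kept for the further 4 h. The comparison of LE with LPS asks what DNA damage does to these mRNAs, and that of LEKU with LE asks how much of it depends on ATM activity. Each condition was sequenced with index adapters that no other condition used, so index and condition cannot be told apart.

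The deposited columns carried no spread between replicates. Within a condition, any 2 columns had the same ratio in every row to within 1.4e-14 on the log2 scale, so each column was 1 fitted value per gene and condition multiplied by the scaling factor of its library. Rps27 illustrates this: its 4 LPS columns held 9621, 10674, 11103 and 10005, and division by the library's scaling factor turned each into 11714. The condition value used below is this number, a normalised read count. These columns therefore allow no test between conditions, the authors' own test results were not used here, and no p-value is given. A gene is called higher or lower only as a description, when its condition values differed by at least 1.2-fold. Whether any difference below exceeds the spread between replicates cannot be read from these columns and was not tested. Column totals were 20739978 to 23935658 counts for LPS, 22523516 to 30575195 for LE and 20400994 to 25052093 for LEKU.

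The cells carried the markers of their label. All 8 genes of the B cell marker list were kept, and their summed level was 140990 counts in LPS, 75042 in LE and 84163 in LEKU. Of the other lists, 1 of 7 T cell genes, 7 of 8 macrophage and monocyte genes, 3 of 6 red blood cell genes and 1 of 6 neutrophil genes were kept, with summed levels of 276 to 431, 4213 to 5530, 115 to 217 and 4.76 to 20.0 counts over the conditions. Thus the B cell markers themselves lay lower in both etoposide conditions. The macrophage and monocyte sum was carried by Mpeg1, with 5113 counts in LPS, 4165 in LE and 3785 in LEKU. Of the 7 kept genes of this list, 4 were past 1.2-fold higher in LE than in LPS, at low counts. These were Csf1r at 4.16 counts in LPS and 10.3 in LE, Cd14 at 5.15 and 24.1, Lyz2 at 34.1 and 47.8 and Cd68 at 104 and 210. Past 1.2-fold lower were 2, Mpeg1 and Itgam, the latter at 219 counts in LPS and 128 in LE. Over all kept rows 32.6% were past 1.2-fold higher and 33.6% past it lower in LE. Of 5 apoptosis regulators, the pro-death genes Bax, Bbc3 and Pmaip1 had log2 ratios of LE to LPS of 1.36, 2.11 and 2.52. The pro-survival genes Bcl2l1 and Mcl1 had 0.35 and -0.27. Thus 4 were past 1.2-fold higher and 1, Mcl1, past it lower. In the same order, the log2 ratios of LEKU to LE were -0.23, 0.35, -0.13, -0.55 and -0.38. The list mixes both kinds of gene and is not read as 1 sign of cell loss. The part of these genes in the results below was not tested. In bulk RNA, fewer cells of a type and less RNA per cell cannot be told apart.

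To show what the start of these genes looks like, short windows from the RefSeq promoter table (build GRCm38.p6) are given for 7 of them, 10 bases before the annotated start and 20 from it, 5′ to 3′ on the strand of the gene, with the longest run of C and T in capitals. Rps18, Rpl28, Rplp2 and Rps27 show the pyrimidine run of TOP mRNAs, Rps27rt is the copy of Rps27, and Rpl5 and Rpl7l1 are among the genes with the lowest ratio of LE to LPS. The core genes Rpl3 and Rpl27, with lower ratios than Rpl5, are not shown. These 7 were picked as examples, so they cannot show whether run and ratio are linked.
Rps18, chr17:33955646-33955675, minus strand: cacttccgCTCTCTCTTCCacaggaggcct
Rpl28, chr7:4792955-4792984, plus strand: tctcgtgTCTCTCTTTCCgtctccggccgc
Rplp2, chr7:141447641-141447670, plus strand: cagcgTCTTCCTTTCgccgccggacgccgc
Rps27, chr3:90213629-90213658, minus strand: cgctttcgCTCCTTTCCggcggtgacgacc
Rps27rt, chr9:114982720-114982749, minus strand: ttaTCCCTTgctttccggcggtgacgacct
Rpl5, chr5:107900518-107900547, plus strand: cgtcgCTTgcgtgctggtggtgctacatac
Rpl7l1, chr17:46782637-46782666, minus strand: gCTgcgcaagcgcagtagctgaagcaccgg
The printed runs of Rps18 and Rpl28 were 11 bases long, that of Rplp2 10 and that of Rps27 9, against 3 in Rpl5 and 2 in Rpl7l1. In Rps27rt 2 runs of 6 bases tied: the first is in capitals, and the second begins at the annotated start. The outermost start in GENCODE lay at -336, -91, -281, -26 and -16 bases from the RefSeq start in Rps18, Rpl28, Rplp2, Rpl5 and Rpl7l1. The printed windows of these genes do not reach it, so the contrast holds for the RefSeq starts only. Rps27 and Rps27rt shared an unbroken stretch of 38 bases just after the start. How far reads of the pair could be told apart was not tested.

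Ribosomal protein mRNAs held a large and, after etoposide, larger share of the counted RNA. The 90 rows together made up 8.69% of all counts in LPS, 10.5% in LE and 10.8% in LEKU, a share 1.21-fold higher in LE than in LPS and 1.02-fold higher in LEKU than in LE. A share is taken within a library, so it does not depend on how libraries were scaled against each other. Its 95% counting interval was ±0.0058 to ±0.0063 percentage points (normal approximation), which covers counting error only. On the scale of the condition values, the summed level of these genes was 2194997 counts in LPS, 2420198 in LE and 2394551 in LEKU. The sum was thus 1.103-fold higher in LE than in LPS, while the sum of all other rows was 0.895-fold that of LPS. Between LE and LEKU the sum of these genes was 0.989-fold and that of the other rows 0.963-fold. The core genes made up 98.6% of the summed level in each condition, and the large subunit genes 56.0% to 56.4%.

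Levels within a condition were high and alike. In LPS, 42 core genes were among the 100 highest rows and 75 of 77 among the 500 highest. Per kb of reference transcript, the median core gene held 34760 counts in LPS, 37519 in LE and 37226 in LEKU, and the upper quartile was 1.68-fold, 1.71-fold and 1.63-fold the lower. Rps12, a small subunit protein, had the highest level per kb in LPS at 92779 counts, followed by the stalk protein Rplp1 at 76683 and the small subunit protein Rps18 at 65829. At the low end of the kept rows were Rps4l at 73.9 counts per kb, Rpl24 at 429 and Rps3a3 at 1060. Rps4l and Rps3a3 are copies that carry a pseudogene biotype in GENCODE M21. Rpl24 is a core large subunit gene, and its level of 291 counts in LPS, 357 in LE and 364 in LEKU lay far under that of every other core gene, the next being Rpl23a with 2760, 3130 and 3014. The exons of Rpl24 overlap those of the annotated gene Gm28037 on the same strand, as do the exons of Rpl13a, Rpl19, Rpl36al and Rps10 with other genes. The part of this overlap in the low count was not tested. The reference transcript of Rps20, at 3706 bases, is far longer than the core median of 729, and its 8901 counts per kb in LPS rest on that length.

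After etoposide nearly all of these mRNAs lay slightly higher than in LPS. The median log2 ratio of LE to LPS was 0.14 over the 86 kept genes, 1.103-fold, with quartiles of 0.11 and 0.18. Of the 86, 84 were higher by any amount, whereas 48.6% of all kept rows were. Past 1.2-fold, 6 genes were higher and 0 lower, and over all kept rows 32.6% were at least 1.2-fold higher and 33.6% at least 1.2-fold lower. The median of all kept rows was -0.019, and that of the 5422 rows with a mean of at least 1000 counts, which include 83 of the 86 genes, was -0.14. With library totals as the scale the median of these genes was 0.27, with 52 of the 86 past 1.2-fold higher. Of the 15574 kept rows 6203 were then past 1.2-fold higher, in place of 5080, and 3942 past it lower, in place of 5235. With the median of the highly expressed rows set to 0 the median of these genes was 0.29, with 60 past 1.2-fold higher. Of all kept rows 6315 were then past it higher and 3830 past it lower. Thus the direction of the median held under each scale and the number past 1.2-fold did not, since library totals raised every log2 ratio by 0.13 and the median of the highly expressed rows by 0.14. The difference between the median of these genes and that of all rows was 0.16 under each of these scales. This follows by construction, because a change of scale moves every row by nearly the same amount.

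**Figure D1:**
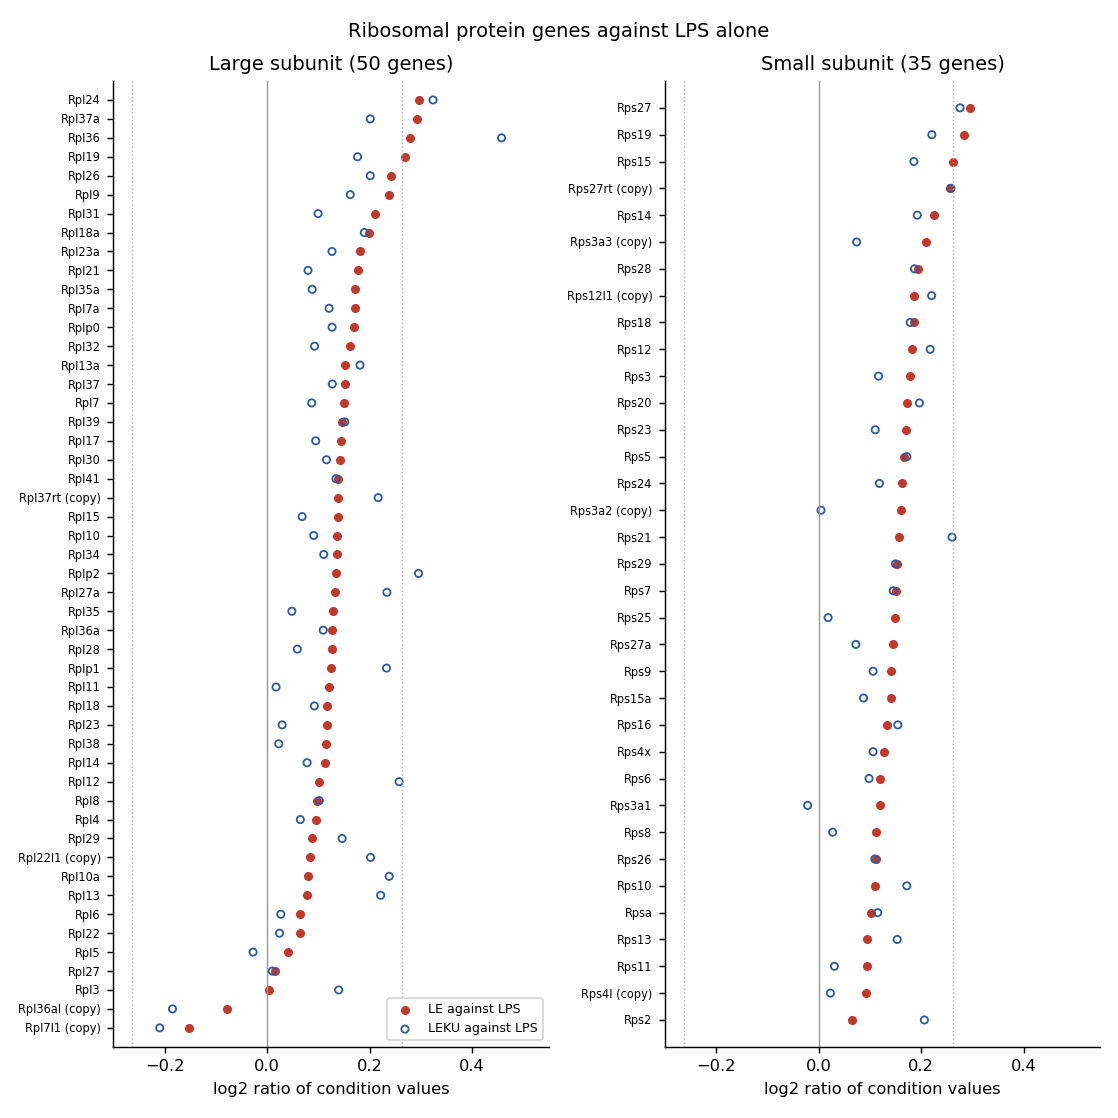
Log2 ratio of the condition values of 85 of the 86 kept ribosomal protein genes, LE against LPS (filled red) and LEKU against LPS (open blue), one row per gene, large subunit on the left and small subunit on the right. Dotted lines mark 1.2-fold, copies and paralogues are marked, and no error bars are drawn because the table holds no replicate spread. In LE 83 of the 85 points lie to the right of 0.

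The ratios of these genes lay close together. Over the 83 genes with a mean of at least 1000 counts, the SD of the log2 ratio of LE to LPS was 0.071, against 0.73 over the other 5339 rows with such a mean. All 83 lay between -0.15 and 0.30, a range that held 31.9% of the other rows. For LEKU against LE the SD was 0.078 against 0.36, and for LEKU against LPS 0.097 against 0.67. Fitted values can be drawn towards each other by the model that made them, for these genes and for the others alike, and how far this was so was not tested. Large and small subunit genes had much the same values, with medians of 0.14 and 0.15 for LE against LPS over the 46 and 31 core genes, and each of the 77 was higher in LE.

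**Figure D2:**
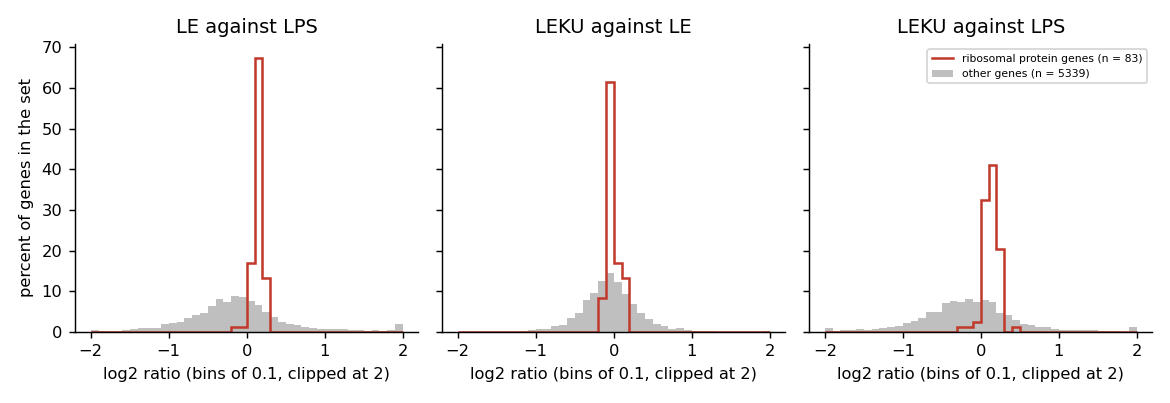
Distribution of log2 ratios in the 3 comparisons for the 83 ribosomal protein genes with a mean of at least 1000 counts (red line) and the 5339 other rows with such a mean (grey bars), as percent of each set in bins of 0.1, with values beyond 2 drawn in the last bin. The red line is confined to a few bins around 0.14, -0.031 and 0.12, the medians, in the order of the panels.

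The genes with the highest ratios belonged to both subunits. Rps27 (ENSMUSG00000090733, GRCm38 chromosome 3, 90212522 to 90213651), a zinc-finger protein of the small subunit, had 11714 counts in LPS, 14384 in LE and 14183 in LEKU, 1.23-fold higher in LE than in LPS. Rpl37a (chromosome 1, 72711290 to 72713813), a large subunit protein, had 14466, 17726 and 16634 counts, also 1.23-fold. Rps19 (chromosome 7, 24884371 to 24889806), the gene most often mutated in Diamond-Blackfan anaemia, had 27223, 33147 and 31727 counts and was 1.22-fold higher. In all 3 genes LEKU lay between LPS and LE with the authors' scaling. With library totals the log2 ratio of LEKU to LE was 0.03 for Rps27, so that LEKU lay above LE. For Rpl37a and Rps19 it was -0.041 and -0.013. Rpl36 (chromosome 17, 56613416 to 56614243) differed, with 9011 counts in LPS, 10928 in LE and 12375 in LEKU, the highest level being in LEKU. Rpl19 (chromosome 11, 98026710 to 98030492) had 20558, 24762 and 23235 counts, a log2 ratio of LE to LPS of 0.27. Rpl24, whose low count is described above, was the sixth gene past the limit at 1.23-fold. Counting error alone gave these ratios a standard error of 0.006 to 0.01 on the log2 scale, and of 0.058 for Rpl24.

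At the other end, paralogues and a few core large subunit genes were level or lower. Rpl7l1, a paralogue of Rpl7 that acts in ribosome assembly, had 3570 counts in LPS, 3210 in LE and 3087 in LEKU, a log2 ratio of LE to LPS of -0.15. Rpl36al, a retrotransposed paralogue of Rpl36a, had 4617, 4374 and 4062 counts, a log2 ratio of -0.078. These were the only 2 kept genes that were lower in LE by any amount with the authors' scaling. Rpl36al was higher instead with library totals, at 0.054, and with the median of the highly expressed rows set to 0, at 0.066, where Rpl7l1 stood at -0.022 and -0.0092. In the columns as deposited both were higher, at 0.26 and 0.18. Among core genes, Rpl3 (chromosome 15, 80077791 to 80091868), which lies near the peptidyl transferase centre, had 53881 counts in LPS and 54048 in LE, a log2 ratio of 0.0045, but 59363 in LEKU. Rpl27 had 12716, 12856 and 12806 counts and hardly differed between the conditions. Rpl5 (chromosome 5, 107900502 to 107909005) had 45850, 47147 and 44986 counts.

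Rpl5 and Rpl11 form the 5S ribonucleoprotein with 5S ribosomal RNA, the particle that binds and inhibits Mdm2 when ribosome assembly is disturbed. Rpl11 had 25355 counts in LPS, 27581 in LE and 25664 in LEKU. Both thus lay above LPS in LE, by log2 ratios of 0.04 and 0.12, and near LPS in LEKU, at -0.027 and 0.018. The latter holds for the authors' scaling: library totals raised every log2 ratio of LEKU to LPS by 0.18 and the median of the highly expressed rows by 0.16, which put Rpl5 at 0.15 and 0.13. Rpl23 and Rpl26, described as further partners of Mdm2 or of p53 mRNA, had log2 ratios of 0.12 and 0.24 in LE against LPS and -0.087 and -0.04 in LEKU against LE. Over the list of 6 such further binders the median was 0.16 and -0.051. Over the 10 genes listed for Diamond-Blackfan anaemia it was 0.16 and -0.054, with 1 of the 10, Rps19, past 1.2-fold. These medians lay close to the core medians of 0.14 and -0.031.

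The proteins of the stalk, the flexible arm of the large subunit that recruits translation factors, did not move alike from LE to LEKU. Rplp0, the stalk base, had 80608 counts in LPS, 90719 in LE and 88017 in LEKU. Its log2 ratio of LEKU to LE was -0.044, near the median of -0.0315 over the kept genes. Library totals raised every such ratio by 0.051, so the direction of Rplp0 depended on the scale. Rplp1 had 38265, 41697 and 44978 counts and Rplp2 had 17406, 19102 and 21366, so both were highest in LEKU. Rpl12, at the stalk base and named after its values were seen, was also highest there, with 36358, 39017 and 43471 counts. Rpsa, a small subunit protein also known as the laminin receptor precursor, had 78143, 83887 and 84635 counts. Rps27a, which is made as a fusion to ubiquitin, had 29074, 32164 and 30575.

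With the ATM inhibitor present, the level of these genes as a group stayed close to that of etoposide alone. The median log2 ratio of LEKU to LE was -0.0315, with quartiles of -0.069 and 0.011. Of the 86 genes, 26 were higher by any amount in LEKU, that is 30.2%, against 44.9% of all kept rows. Past 1.2-fold 0 were higher and 0 lower, and over all kept rows 21.1% were at least 1.2-fold higher and 28.4% at least 1.2-fold lower. The sign of so small a median depended on the scale, since library totals gave 0.019 and 54 higher. Single genes lay further apart than this median shows.

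In 11 genes the log2 ratio of LEKU to LE was above 0.1, and in 8 it was below -0.1. Over all rows with a mean of at least 1000 counts the quartiles were -0.26 and 0.15. Ratios past 0.1 either way were thus more common over those rows than in these genes. Rpl36 was the highest at 0.18, followed by Rplp2 at 0.16 and Rpl10a at 0.16, the latter with 25340 counts in LPS, 26792 in LE and 29891 in LEKU. Rpl12, a stalk-base protein, Rpl13, Rps2, Rpl3, Rpl22l1, Rplp1, Rps21 and Rpl27a made up the rest, at 0.16, 0.14, 0.14, 0.14, 0.12, 0.11, 0.1 and 0.1, and were named after their values were seen. Towards the low end, Rps3a1 had 44539 counts in LPS, 48371 in LE and 43877 in LEKU, a log2 ratio of LEKU to LE of -0.14, and its copy Rps3a2 had 7178, 8028 and 7200, a log2 ratio of -0.16. The log2 ratio of LEKU to LPS was -0.022 for Rps3a1 with the authors' scaling, but 0.16 with library totals and 0.14 with the median of the highly expressed rows set to 0. In Rpl36, Rplp2 and Rpl10a it was 0.46, 0.30 and 0.24 with the authors' scaling, above their values in LE.

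Against LPS, LEKU showed the same small elevation as LE, and both comparisons share the LPS libraries. The median log2 ratio was 0.12, and 82 of 86 genes were higher by any amount, against 50.9% of all kept rows. Past 1.2-fold, 4 were higher, namely Rpl36 at 1.37-fold, Rpl24 at 1.25-fold, Rplp2 at 1.23-fold and Rps27 at 1.21-fold, and 0 were lower. Over all kept rows 33.7% were at least 1.2-fold higher and 32.3% at least 1.2-fold lower. With library totals as the scale 62 of the 86 genes were past 1.2-fold higher. Of the 15574 kept rows 6963 were, in place of 5242. With the median of the highly expressed rows set to 0 these counts were 52 and 6697.

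The base composition of the transcripts differed along the LEKU to LE ratio. GC content of the reference transcript was known for all 77 core genes and ranged from 41.3% to 60.8%. Across the 77 genes, which share all libraries and are not independent, Pearson's r between GC content and the log2 ratio was 0.31 for LEKU against LE (Spearman's rho 0.26) and 0.052 for LE against LPS (rho -0.069). Of the 25 core genes with the lowest GC content, 3 were higher in LEKU than in LE, with a median of -0.054. Of the 25 with the highest, 11 were higher, with a median of -0.0072. Among 5081 coding genes outside the group with a mean of at least 1000 counts, r was 0.10 for LEKU against LE. The 1693 of those with the lowest GC content had a median of -0.093 and the 1693 with the highest one of 0.0083, a step in the same direction. Rpl36 had the highest GC content of the core genes, at 60.8%. The part of base composition in these ratios was not tested.

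**Figure D3:**
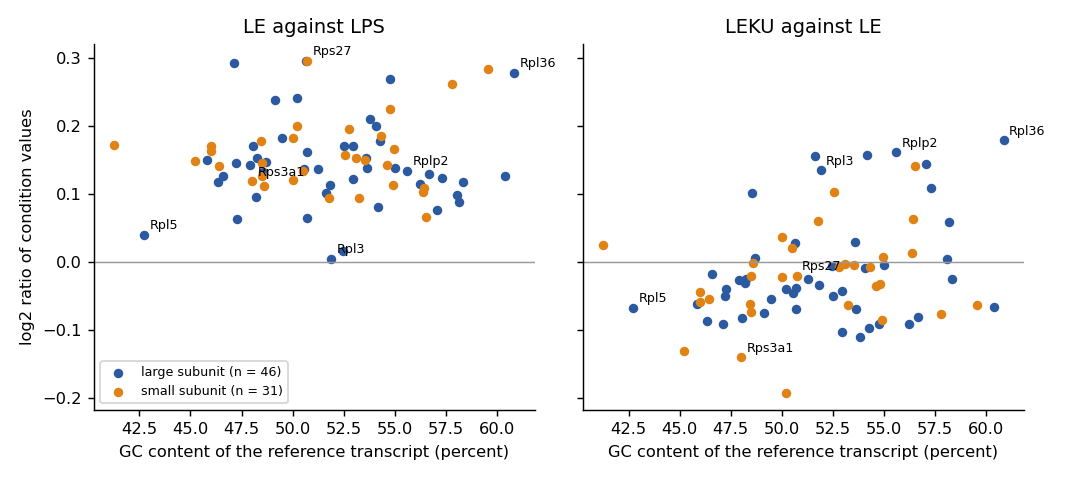
GC content of the reference transcript in percent against the log2 ratio of condition values for the 77 core genes, LE against LPS on the left and LEKU against LE on the right, coloured by subunit. In the right panel the genes above 0.1 all have a GC content of at least 48.5%, and Rpl36 at 60.8% is the highest on both axes.

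Transcript length moved with the LE to LPS ratio in the opposite sense. Reference transcripts of the core genes were 271 to 3706 bases long. Over the 77 genes r between log2 length and log2 ratio was -0.30 (rho -0.29) for LE against LPS and -0.011 (rho -0.024) for LEKU against LE. The 28 core genes under 600 bases had a median log2 ratio of LE to LPS of 0.16, the 32 of 600 to under 1000 bases one of 0.14 and the 17 of 1000 bases or more one of 0.13. Among the 5081 other coding genes with a mean of at least 1000 counts, r with length was 0.0087. The 224 such genes with transcripts under 1 kb had a median of -0.073. The 13 of them with a mean of at least 10000 counts had a median of -0.098. Between log2 mean count and the log2 ratio of LE to LPS of the core genes r was -0.30, but rho was only -0.16. Rpl24, with its low count and a log2 ratio of 0.30, enters that r. Length and level themselves moved together, at r of 0.47 (rho 0.65). The part of length and level in the ratios was not tested. Within 30 of the core genes lie snoRNA genes, 58 in all, and these 30 had a median of 0.13, against 0.15 for the 47 that host none.

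**Figure D4:**
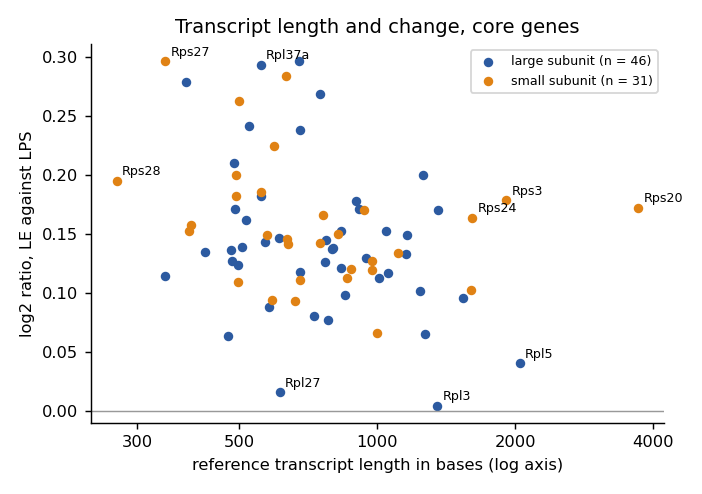
Length of the reference transcript in bases (log axis) against the log2 ratio of LE to LPS for the 77 core genes, coloured by subunit. All points lie above 0, and the genes above 0.25 all have transcripts of at most 751 bases.

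Several copies kept a near-constant ratio to their parent gene, and some coding paralogues did not. Rps27rt, with 8763 counts in LPS, 10470 in LE and 10481 in LEKU, stood at 72.8% to 74.8% of Rps27 in every condition. Rps12l1 was 3.50% to 3.51% of Rps12, Rps3a2 16.1% to 16.6% of Rps3a1, Rps3a3 1.89% to 2.02% of Rps3a1, and Rpl37rt 7.53% to 8.10% of Rpl37. Rps4l, at 58.3, 62.2 and 59.3 counts, was 0.098% to 0.104% of Rps4x. By contrast, Rpl7l1 stood at 8.40% of Rpl7 in LPS and 6.81% in LE, and Rpl36al at 40.8% of Rpl36a in LPS, 35.4% in LE and 33.2% in LEKU. Rpl22l1, which stands in for Rpl22 in some cells, had 3293, 3491 and 3788 counts, 30.3%, 30.8% and 34.3% of Rpl22. The rows named -ps, which are annotated pseudogenes and no members of the group, were 233 in number and summed to 5.92% of its level in LPS and 5.78% in LE. For the 38 of them with a mean of at least 1000 counts, the median absolute difference from the parent's log2 ratio of LE to LPS was 0.028, and 86.8% lay within 0.1 of it. Rpl3-ps1, with log2 ratios of -0.014 for LE against LPS and 0.18 for LEKU against LE, had the pattern of Rpl3. Reads shared between a gene and its copies could have been counted in either, so the level of each is uncertain.

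The start sequences shown above can be set against those of other genes. RefSeq windows existed for 65 of the 90 genes, 57 of them core genes. Within 20 bases of the start on the coding strand, at least 1 of the letters CTTTCC, CTCTTTCC or CCTTTC, of which the second contains the first and the third overlaps both, stood in 22.8% of the 57 core genes, in 3.39% of 4036 other genes with a mean of at least 1000 counts and in 3.51% of all 27025 genes in the table, each gene counted over all its windows. CTCTTTCC alone stood in 5.26%, 0.322% and 0.207%. A run of 7 or more C and T in any order stood there in 61.4%, 28.0% and 27.5%. Anywhere in the 300 bases and on either strand, CCGGAAG, the core of Ets-family sites, stood in 42.1%, 24.1% and 9.93%. GATGGCGG stood in 3.51%, 5.72% and 1.97%, CACGTG in 10.5%, 12.7% and 8.09%, and TATAAA in 10.5%, 7.90% and 15.7%. The 13 core genes with a match to the pyrimidine letters had a median log2 ratio of LE to LPS of 0.13 and the other 44 one of 0.14, so the ratio hardly differed with the letters. The search depends on where the start is set, and the outermost start in GENCODE lay within 20 bases of one in RefSeq for 23 of the 57.

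Other genes of the translation machinery are given for comparison, to be read against all kept rows, of which 32.6% were past 1.2-fold higher and 33.6% past it lower in LE against LPS, and 48.6% higher by any amount. The values of these lists are with the authors' scaling. Library totals raised every log2 ratio of LE to LPS by 0.13, so the sign of small medians and the counts depend on the scale. The lists were not recounted under other scales. Of 26 other TOP mRNAs, which include the elongation factors, 11 were higher in LE than in LPS, 0 past 1.2-fold higher and 3 past it lower. Their median was -0.041, which lies above the -0.14 of all rows with a mean of at least 1000 counts. Within this list, Eef1a1, which delivers aminoacyl-tRNA, had 306340 counts in LPS, 337380 in LE and 328910 in LEKU, a log2 ratio of LE to LPS of 0.14, and Eef1b2 and Tpt1 were at 0.21 and 0.18, whereas Hnrnpa1 was at -0.50. Fau and Gnb2l1, which encode core ribosomal proteins but have names that the rule does not match, had log2 ratios of 0.14 and 0.066. Among 35 genes for ribosome biogenesis and RNA polymerase I, 21 were at least 1.2-fold lower and 5 at least 1.2-fold higher in LE, with a median of -0.28. In LEKU against LE, 19 of the 35 were past 1.2-fold lower, against 28.4% of all kept rows, and 1 was higher, against 21.1%, with a median of -0.28. Some of the 19, such as Rrn3 and Utp20, had been higher in LE than in LPS. In LEKU against LPS 26 were lower, against 32.3% of all kept rows, and 2 higher, against 33.7%, with a median of -0.58. The pseudouridine synthase Dkc1 had 4270, 2762 and 1846 counts and the nucleolar scaffold Nolc1 5608, 4236 and 2844. The 5 genes higher in LE included Rrn3, the RNA polymerase I initiation factor, with 2085, 6638 and 3905 counts, and Utp20, with 4228, 8569 and 4157. The 79 kept genes of the mitochondrial ribosome had a median of -0.13 in LE against LPS, with 9 past 1.2-fold higher and 29 past it lower, a lower share of 36.7% that is near that of all rows.

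**Figure D5:**
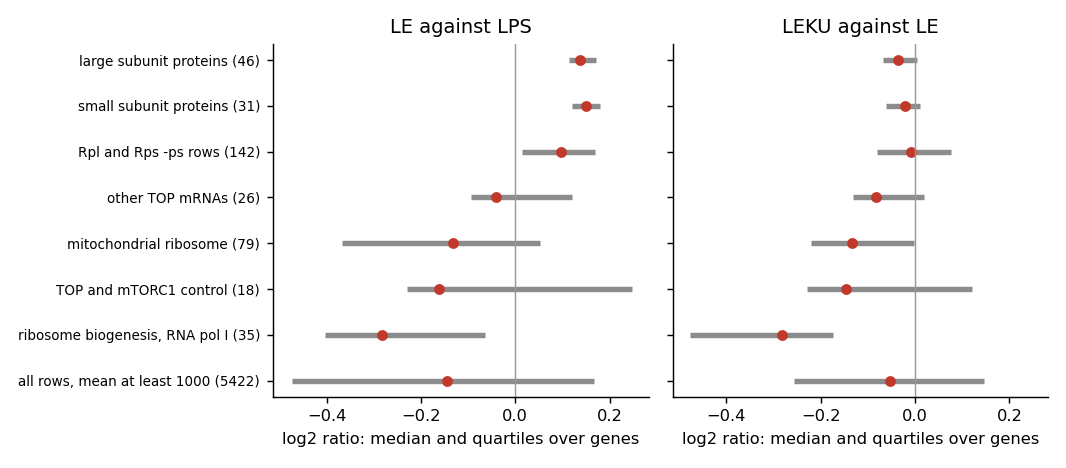
Median (red point) and quartiles (grey bar) over genes of the log2 ratio in LE against LPS (left) and LEKU against LE (right) for the core genes of each subunit and for other gene lists, with the number of kept genes in brackets. All values are with the authors' scaling, and positions relative to 0 depend on it. The bars of the ribosomal proteins are the narrowest and lie above 0 in the left panel, while that of ribosome biogenesis genes lies below 0 in both.

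Of the regulators of TOP mRNAs and mTORC1, 18 genes were listed, 4 past 1.2-fold higher and 4 past it lower in LE against LPS, 22.2% each way, under the shares of all kept rows. Larp1, which binds the start of TOP mRNAs, had 10588 counts in LPS, 4964 in LE and 5229 in LEKU, a log2 ratio of LE to LPS of -1.09. Myc, a transcriptional activator of ribosome genes, had 3744, 1562 and 1716 counts. Sesn2 and Ddit4, inhibitors of mTORC1, went from 1220 to 8438 and from 2646 to 8994 counts in LE and stood at 5647 and 7663 in LEKU. Over these 18 genes the SD of the log2 ratio of LE to LPS was 0.94, against 0.073 over the 86 ribosomal protein genes. The genes named from these lists were chosen after their values were seen. One ribosomal protein paralogue left out by the rule behaved unlike the group and was named after its values were seen: Rps27l, a paralogue of Rps27 known as a p53 target, had 1965 counts in LPS, 5425 in LE and 3430 in LEKU, 2.76-fold higher in LE than in LPS and 0.632-fold in LEKU relative to LE.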

How the data were processed

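RNA-seq of 12 mouse libraries was used, 4 per condition, described in the study's methods as biological replicates. Per the labels and the study's methods, the authors trimmed reads with Trim Galore and cutadapt 1.2.1, aligned them to GRCm38 with TopHat2 2.0.12, counted them with HTSeq over genes of Ensembl release 78 and normalised them with DESeq2 1.6.3; the strand setting of the counting is not given in the sources used here. The deposited values are a signal on the scale of normalised counts: fitted means per condition multiplied by a size factor per library, with no replicate spread. The planned limma test could therefore not be run and ratios are given with no test. The authors' comparison tables also hold their fold changes, standard errors and p-values, which were not used; only the mean over all libraries was, to recover size factors (0.821 to 0.948 for LPS, 0.977 to 1.33 for LE, 0.916 to 1.13 for LEKU) by least squares over 10866 rows with a mean above 100. For 96.3% of these rows the deposited mean was rebuilt within 0.01 on the log2 scale. The procedure was tested on simulated data.

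Each column was divided by its size factor, and log2(value + 1) was compared between conditions over rows with at least 10 counts in a condition. No row was without a gene in the totals used, and no per-sample column was left unused. Gene positions, exon overlaps, snoRNAs and reference transcripts (the principal coding transcript with the longest coding sequence, then the shortest) came from GENCODE M21, and start windows from RefSeq. Python 3.11.15, pandas 2.3.3 and scipy 1.17.1 were used. Named genes were the 5 lowest and 5 highest by LE against LPS and the 3 lowest and 3 highest by LEKU against LE (mean of at least 1000 counts), the 3 lowest and 3 highest per kb in LPS, the stalk and Mdm2-binding genes, Rpsa, Rps27a and the copies. A gene that this rule also chose is not reported here. The members, lists and rules were chosen with earlier results of these data known. Alternatives were other scalings, pseudocounts, filters and thresholds, leaving out paralogues or overlapping genes, and leaving out each library.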

Additional observations from a re-analysis of the deposited data

How the results depend on the processing

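Scaling moved the medians most. The median log2 ratio of LE to LPS was 0.27 with library totals, 0.17 with TMM factors, 0.29 with the median of highly expressed rows set to 0 and 0.48 with the columns as deposited, which differ in depth, and 52, 9, 60 and 84 genes were at least 1.2-fold higher. For LEKU against LE the medians were 0.019, -0.048, -0.018 and -0.12, with 1 gene past 1.2-fold lower in the columns as deposited. For LEKU against LPS they were 0.30, 0.13, 0.28 and 0.36, with 62, 7, 52 and 76 genes higher. In the columns as deposited, 8328 of the 15574 kept rows were past 1.2-fold higher for LE against LPS and 7662 for LEKU against LPS. For LEKU against LE 2430 were past it higher and 5653 past it lower. With TMM factors 5260, 3114 and 5292 rows were past it higher in LE against LPS, LEKU against LE and LEKU against LPS. At 1.1-fold, 47 genes were higher and 1 lower in LE against LPS. In LEKU against LE these were 6 and 3, and in LEKU against LPS 37 and 2. At 1.5-fold, 0 were higher in LE against LPS or LEKU against LPS. The shares of all kept rows at these other thresholds were not counted, so these counts cannot be set against them. The SD in LEKU against LPS was 0.085 without the paralogue list and 0.085 with core genes only, the latter chosen after seeing the data. Shares without immunoglobulin rows were 8.89%, 10.7% and 11.0% in LPS, LE and LEKU, and with -ps rows added 9.21%, 11.1% and 11.4%. Pseudocounts of 0.5 and 5, filters at 0, 50 and 1000 counts, and leaving out overlapping genes (chosen after seeing the data) kept every median within counting error.

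Leaving out a library changed nothing in any of 84 values, by construction, and says nothing about stability. No paired analysis was possible because the deposited columns carry no replicate spread. The table used here holds 0 mitochondrially encoded rows, so that alternative was not run. Counting error in log2 units was small for most genes but 0.058 for Rpl24 and 0.13 for Rps4l in LE against LPS, the latter more than its ratio of 0.092. The spread between replicates was not measured here.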
